A study of Mus musculus with 10 samples.

Results

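The 34 genes described here encode 19 integrin subunits, 10 laminin chains, the basement membrane linkers Nid1, Nid2, Hspg2 and Agrn, and the laminin receptor Dag1. They form a list of named genes, and all 34 were found among the 46517 genes in each table. The data are RNA-seq read counts from 10 libraries of mouse malignant peripheral nerve sheath tumour (MPNST) cells. This sarcoma arises from Schwann cells or their precursors, and here it was kept as allografts, tumour tissue transplanted into host mice. Each of 5 allograft models, A to E, gave 1 library of GFP+ and 1 of GFP- cells, so the 2 libraries of a model form a pair. GFP+ cells carry expression of the CGD transgene and GFP- cells lack it, in the terms of the series. In both populations, non-tumour and dead cells had been gated out during sorting, after collagenase dissociation of the fresh tumours. The tumours' genotype, the transgene's promoter, the hosts' strain and age, and the number of animals behind a model are details not given in the labels used here.

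Integrins are receptors made of an alpha and a beta subunit that span the cell membrane and tie the cytoskeleton to the matrix. The alpha subunit largely sets the ligand: laminins, collagens or proteins that carry an RGD sequence such as fibronectin. Laminins are trimers of an alpha, a beta and a gamma chain that polymerise into the basement membrane, where nidogens, perlecan (Hspg2) and agrin link them to other components. Schwann cells need a laminin-rich basement membrane, and the integrins and dystroglycan that bind it, to sort and myelinate axons.

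Reads in genes numbered 15978673 to 22082207 per library, and levels are given as CPM, a gene's count per 1000000 of these reads. The label of the cells was checked against 12 Schwann lineage markers, whose summed level was 60.6 to 419 CPM in the GFP+ libraries and 64.3 to 175 CPM in the GFP- libraries. Sox10, the factor that specifies Schwann cells, was at 17.1, 52.6 and 112 CPM in the GFP+ libraries of models B, C and D but at 0.111 and 0.434 CPM in those of A and E. In the GFP- libraries Sox10 was at 1.63, 7.65 and 3.69 CPM in B, C and D, and at 0.0514 and 0 CPM in A and E. The populations of B, C and D thus differed in this marker too. Of 10 endothelial markers the highest was Egfl7, at 1.16 to 11.0 CPM, while Pecam1 reached 1.31 CPM. The 8 fibroblast markers had by far the largest sum, 18818 to 34802 CPM in the GFP+ libraries and 19665 to 39754.1 CPM in the GFP- libraries. Among them Col3a1 lay at 5251 to 19088 CPM and Pdgfra at 659 to 2469.5 CPM, but Lum only at 0.905 to 60.5 CPM. The part of fibroblasts in the values was not tested. The GFP+ library of model D stood apart in 1 respect: it held 103 CPM of Xist, the RNA of the inactive X chromosome, beside 42.2 CPM of the Y-linked Ddx3y, where its GFP- partner held 2.82 and 64.1 CPM. Values without pair D are therefore given where a result rests on it. In bulk libraries, more RNA per cell and more cells of a type cannot be told apart.

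Promoter sequences are shown first for the 5 genes with the smallest p between GFP+ and GFP- levels, none of which passed after adjustment. The sequences are the 250 bases before the RefSeq start in build GRCm38.p6, printed in the direction of transcription, for 4 of those 5 genes. RefSeq entries were matched for 23 of the 34 genes. Capitals mark matches on either strand to 4 motifs searched: the AP-1 site TGANTCA, the GC box GGGCGG, the TEAD core CATTCC and the SOX and TCF core ACAAAG. No match overlaps another in these windows.
Itga2, chr13:114932101-114932350, minus strand: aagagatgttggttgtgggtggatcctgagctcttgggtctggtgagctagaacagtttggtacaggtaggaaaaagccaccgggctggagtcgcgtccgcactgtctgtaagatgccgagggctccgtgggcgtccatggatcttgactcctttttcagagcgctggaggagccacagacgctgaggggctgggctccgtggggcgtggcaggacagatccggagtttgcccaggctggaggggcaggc
Itga5, chr15:103366792-103367041, minus strand: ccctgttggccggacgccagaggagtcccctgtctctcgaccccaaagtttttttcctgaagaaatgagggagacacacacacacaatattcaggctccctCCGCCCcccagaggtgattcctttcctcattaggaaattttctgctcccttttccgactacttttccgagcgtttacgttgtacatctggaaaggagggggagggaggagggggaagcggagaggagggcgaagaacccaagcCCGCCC
Itga4, chr2:79255176-79255425, plus strand: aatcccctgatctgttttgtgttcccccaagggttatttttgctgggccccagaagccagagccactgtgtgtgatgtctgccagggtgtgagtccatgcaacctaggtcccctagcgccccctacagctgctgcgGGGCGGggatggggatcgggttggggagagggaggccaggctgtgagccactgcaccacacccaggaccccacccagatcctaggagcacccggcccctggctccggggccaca
Itga10, chr3:96645334-96645583, plus strand: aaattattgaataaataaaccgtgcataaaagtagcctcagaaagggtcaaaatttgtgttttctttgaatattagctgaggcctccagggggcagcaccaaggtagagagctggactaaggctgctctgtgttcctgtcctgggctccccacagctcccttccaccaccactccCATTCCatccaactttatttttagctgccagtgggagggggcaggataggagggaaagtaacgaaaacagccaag

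The Itga5 window held 2 GC boxes, the Itga4 window 1 and the Itga10 window 1 TEAD core, whereas the Itga2 window held none of the 4 motifs. Over all 32851 RefSeq windows of this length, 32.7% held a GC box, 12.6% a TEAD core, 16.5% the SOX and TCF core and 6.75% an AP-1 site. The 4 windows thus share no motif of the 4, and a match is a description of the letters only.

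In every library the same genes led the integrin alpha and beta families and the laminin chain families. To compare genes, CPM was divided by the length of a gene's merged exons in kilobases. On this scale Itgb1, the beta subunit shared by most laminin, collagen and fibronectin receptors, was the most abundant of the 34 genes, at a mean of 219 CPM per kilobase (150.1 to 263 over the libraries). Perlecan (Hspg2) followed at 138, nidogen (Nid1) at 118, the laminin chain genes Lamb1 at 102 and Lamc1 at 101, and Itgb5, the beta partner of Itgav in a vitronectin receptor, at 62.7 CPM per kilobase. Their ranges over libraries overlapped for each neighbouring pair in this order. With the longest annotated transcript as the length, a choice made after the data were seen, Itgb1 remained first but Lamb1 moved from rank 4 to rank 2.

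**Figure D1:**
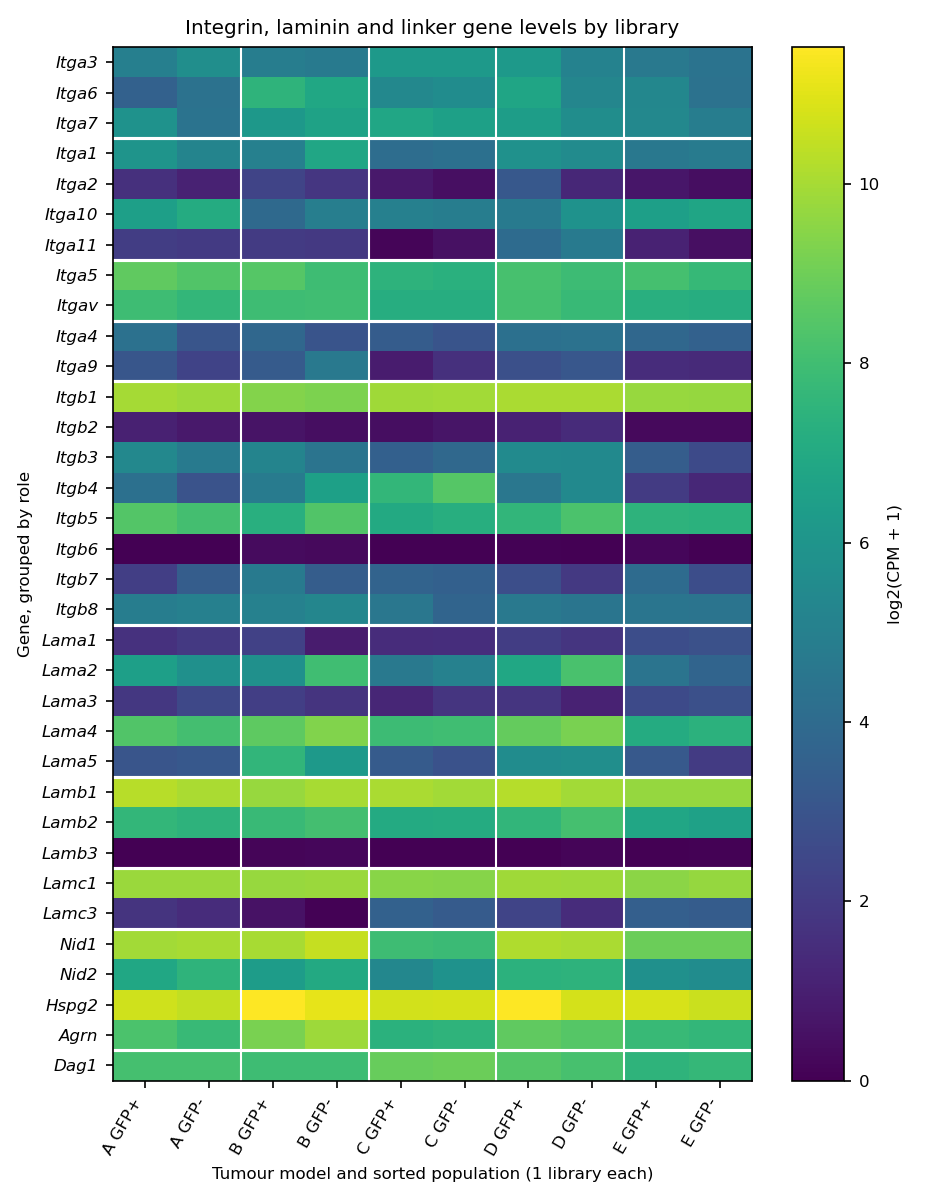
Heat map of the 34 genes (rows, grouped by role) in the 10 libraries (columns, by tumour model and sorted population), coloured by log2(CPM + 1). Itgb1, Hspg2, Lamb1 and Lamc1 are high in every column, Itgb6 and Lamb3 are near 0 in every column, and rows such as Itgb4 and Lama5 change between models.

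Among the integrin beta genes, Itgb1 made up 56.1% to 79.7% of the summed level per kilobase and Itgb5 12.0% to 34.9%. The share of Itgb1 was lowest in the GFP- library of model B and that of Itgb5 was highest there. Among the alpha genes, Itga5, the fibronectin receptor subunit, led in every library with 39.4% to 58.1%, and Itgav, which binds vitronectin and other RGD proteins, added 13.7% to 19.6%. The laminin-binding subunits Itga3, Itga6 and Itga7 each took a smaller share than Itga5 (3.68% to 15.1%, 0.851% to 14.5% and 1.89% to 15.8%). Itga10, a collagen-binding subunit best known from cartilage, ranged from 2.01% to 23.7%, with its highest share in the GFP- library of model E. It exceeded Itgav in the GFP- library of model A and in both libraries of model E.

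Of the laminin alpha genes, Lama4, whose chain is typical of vessels and of peripheral nerve, held 62.1% to 88.4% of the summed level per kilobase. Lama2, the alpha chain of the endoneurial Schwann cell basement membrane, held 4.61% to 25.2%, and Lama5 1.63% to 30.6%, its peak being the GFP+ library of model B. With the longest transcript as length, that peak was 18.4%. On that scale Lama4 held 73.4% to 91.5%. Lamb1 outweighed Lamb2 in every library (68.6% to 84.2% against 15.8% to 31.4%), and Lamc1 was nearly the only gamma gene read, with at least 98.0% of the gamma level. The chains of the epithelial laminin were scarce. Lamb3 had 0, 2, 0, 0 and 0 reads in the GFP+ libraries of models A to E and 0, 3, 0, 2 and 1 in the GFP- libraries. A count of 0 allows up to 3 reads, or 0.136 to 0.188 CPM in these libraries, counting error only.

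**Figure D2:**
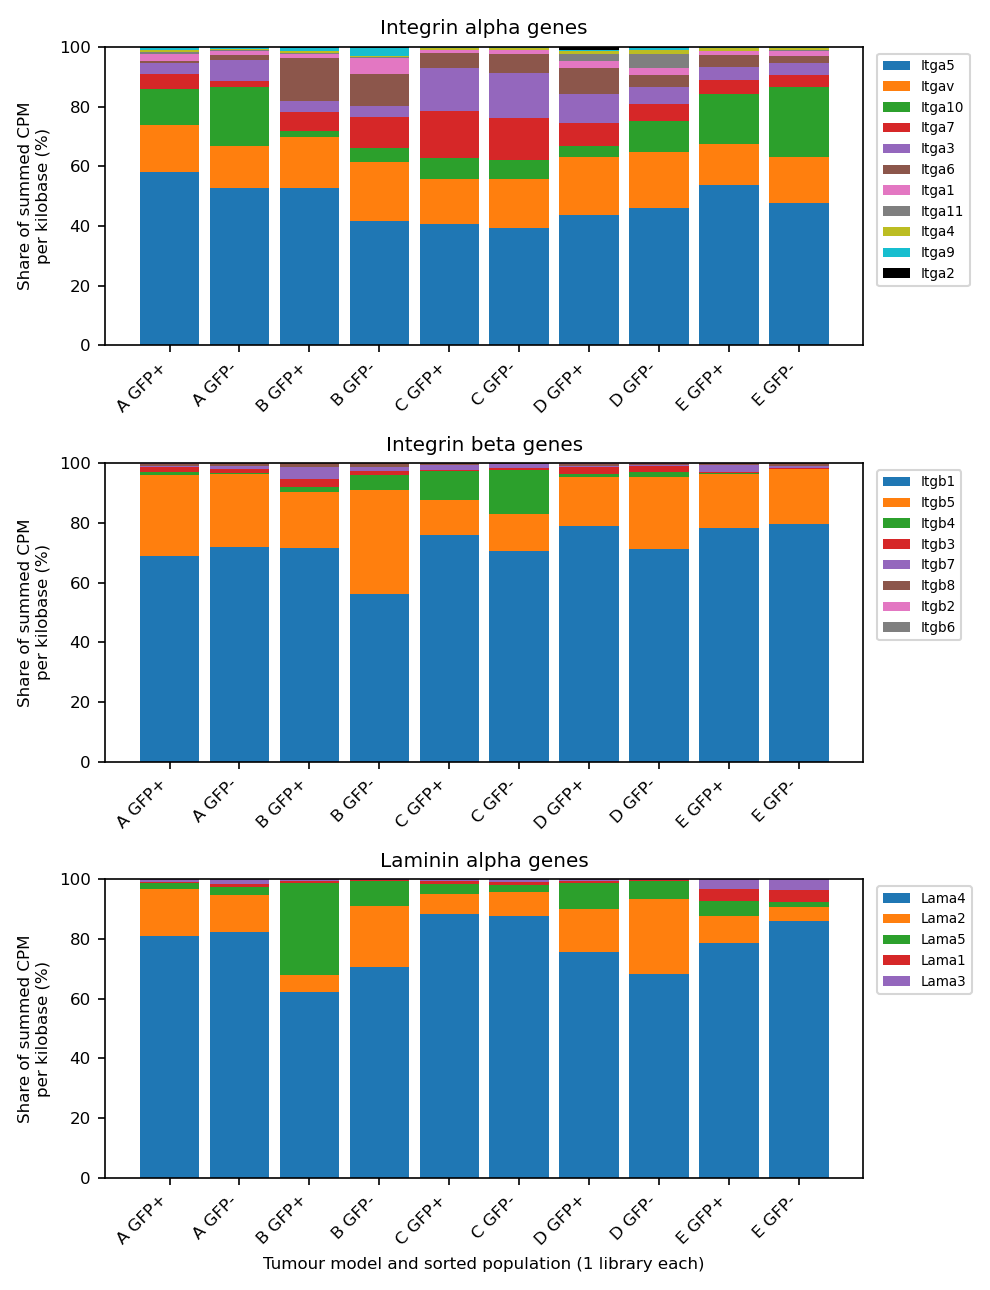
Stacked bars of each gene's share (%) of the summed CPM per kilobase of its family in the 10 libraries, for integrin alpha, integrin beta and laminin alpha genes. Itga5, Itgb1 and Lama4 form the largest block of every bar, and Lama5 reaches 30.6% in the GFP+ library of model B.

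Whether these genes differ with the transgene is the question put to each pair of GFP+ and GFP- cells. None of the 34 passed the test. The edgeR quasi-likelihood test, with the model as a block, gave 0 calls. Thus 0 of the 32 genes that had enough reads had an adjusted p (Benjamini-Hochberg) under 0.05, against 0% of the 13986 genes tested. The lowest adjusted p of the 34 was 0.393 by edgeR, and DESeq2, which called 195 genes in all, also called 0 of the 34 (lowest adjusted p = 0.143). At an unadjusted p under 0.05 there were 5 of 32 (15.6%), against 8.99% of all tested genes. Itga2, Itga5 and Itga4 were on the higher side in GFP+ cells (9.38% against 5.5% of all genes) and Itga10 and Nid2 on the lower side (6.25% against 3.49%). Without the model as a block 0 were under that p, where 190 of 13986 genes were. Without pair A 10 were, where 1477 of 14095 genes were.

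The 32 genes had no common direction: 16 had a log2 difference above 0 (50%, against 49.3% of all tested genes), and their median was 0.00015 against -0.0028 for all genes. Their median absolute log2 difference was 0.29 against 0.12. Itga2, Itga5 and Lamc3 were higher in GFP+ cells in 5 of 5 pairs, and 0 genes were lower in all 5. That is 9.38% with 1 direction in every pair, against 9.78% of all tested genes. All 3 laminin-binding alpha genes had estimates above 0, as had both RGD-binding ones, whereas 3 of 4 collagen-binding ones lay below 0. The estimate of Itga3, a laminin-binding one, lay below 0 without pair D (-0.12), that of the collagen-binding Itga1 lay above 0 without pair B (0.19) and that of Itga11 without pair C (0.060) or D (0.18).

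**Figure D3:**
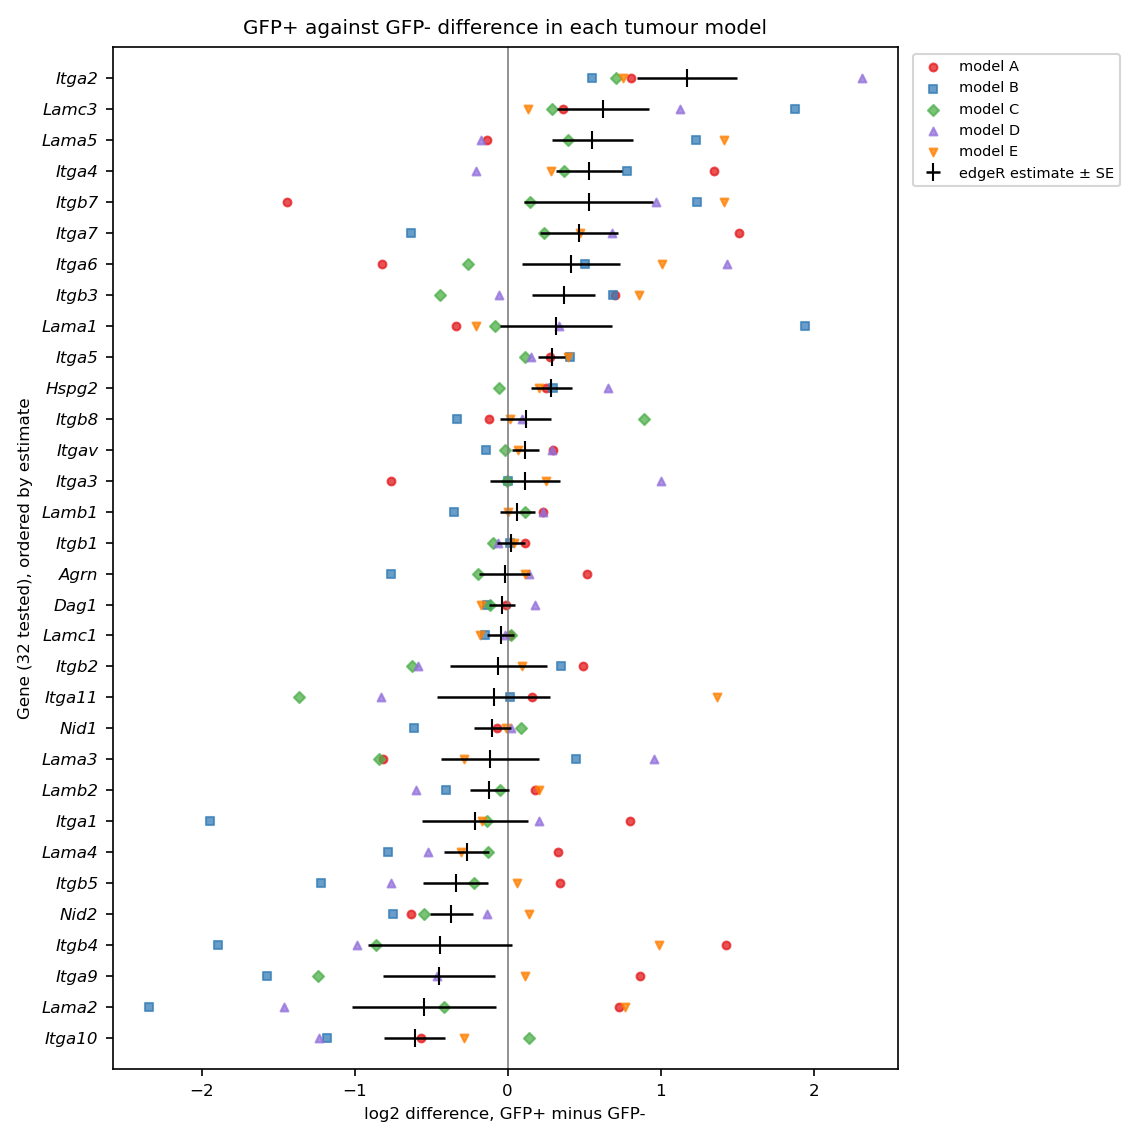
Log2 difference of GFP+ minus GFP- cells for the 32 tested genes, ordered by estimate. Coloured symbols are the 5 tumour models and black bars the edgeR estimate ± SE. The symbols of Itga2, Itga5 and Lamc3 lie right of 0 in all 5 models, and Lama2 and Itgb4 have models on both sides of 0.

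Itga2 (ENSMUSG00000015533, chromosome 13, 114833081 to 114932100 in mm10), a collagen-binding alpha subunit, had the smallest p among the 34 genes. It stood at 2.06, 4.10, 0.706, 8.01 and 0.627 CPM in the GFP+ libraries of models A to E and at 1.13, 2.54, 0.385, 1.44 and 0.325 CPM in the GFP- libraries. GFP+ was higher in each pair, by the most in D, and the populations overlapped. The gene is scarce: its reads numbered 37, 77, 13, 146 and 13 in the GFP+ libraries and 22, 56, 7, 23 and 6 in the GFP- libraries. The means were 3.10 ± 3.08 and 1.16 ± 0.904 CPM (SD, n = 5 each). The log2 difference was 1.17 (SE 0.32) at an unadjusted p of 0.00771 and an adjusted p of 0.393 by edgeR, and 0.78 without pair D.

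Itga5 (ENSMUSG00000000555, chromosome 15, 103344286 to 103366763), the fibronectin receptor subunit, showed a small difference that recurred in each pair. Its level was 413, 355, 177, 285 and 276 CPM in the GFP+ libraries of models A to E and 341, 245, 161, 242 and 208 CPM in the GFP- libraries. Each GFP+ library exceeded its own partner, and the populations overlapped. The log2 difference was 0.29 (SE 0.085) at an unadjusted p of 0.0108 and an adjusted p of 0.417 by edgeR, and leaving out any 1 pair gave 0.24 to 0.33.

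Itga4 (ENSMUSG00000027009, chromosome 2, 79255426 to 79333123), which binds fibronectin and the vascular adhesion molecule VCAM, stood at 18.6, 13.2, 9.12, 17.8 and 13.4 CPM in the GFP+ libraries of models A to E and at 7.25, 7.02, 6.93, 19.5 and 10.8 CPM in the GFP- libraries. GFP+ was higher in pairs A, B, C and E and lower in D. The log2 difference was 0.53 (SE 0.22) at an unadjusted p of 0.0417 and an adjusted p of 0.533 by edgeR. Its unadjusted p was 0.125 without pair A, 0.106 without B, 0.0658 without C, 0.0741 without E and 0.0128 without D. The log2 difference was 0.33 without pair A and 0.72 without pair D. Leukocytes also use this subunit, and the summed level of 14 leukocyte markers was 20.9 to 54.9 CPM in the GFP+ libraries and 13.4 to 59.6 CPM in the GFP- libraries. Most of it was Cd14, at up to 50.9 CPM and highest in both libraries of model C, and Cd68, at up to 16.6 CPM, while the defining marker Ptprc reached 0.453 CPM. The part of such cells in the Itga4 values was not tested.

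Itga10 (ENSMUSG00000090210, chromosome 3, 96645584 to 96664519) stood on the other side, with the lowest estimate of the 32 genes. It was at 90.5, 14.2, 31.6, 25.8 and 89.9 CPM in the GFP+ libraries of models A to E and at 134, 29.8, 28.3, 57.5 and 109 CPM in the GFP- libraries. Models A and E held the most of it, and GFP+ was lower in pairs A, B, D and E and slightly higher in C. The log2 difference was -0.61 (SE 0.20) at an unadjusted p of 0.0169 and an adjusted p of 0.459 by edgeR. Without pair D it was -0.46, at an unadjusted p of 0.0583. Part of the gene's exons is shared on the same strand with the predicted gene Gm42957, so its counts are uncertain.

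Itga9, the subunit that binds tenascin and the VCAM molecule, stood at 7.39, 8.79, 0.815, 5.98 and 1.79 CPM in the GFP+ libraries of models A to E and at 4.01, 24.2, 2.04, 7.82 and 1.63 CPM in the GFP- libraries. It was more than 2-fold lower in GFP+ cells in pairs B and C. It was also lower in D, and in A and E the GFP+ library was above its partner. Its log2 difference was -0.45 (SE 0.37) at an adjusted p of 0.759 by edgeR, -0.82 without pair A, -0.12 without B and -0.28 without C.

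Itgb1 stood at 1001, 674, 937, 1072 and 863 CPM in the GFP+ libraries of models A to E and at 926, 613, 984, 1057 and 828 CPM in the GFP- libraries. Its pairs lay on both sides of 0 with a log2 estimate of 0.020 (SE 0.091), the narrowest spread of pair differences among the beta genes, and its sign changed without pair A or E. Itgb5 stood at 347, 155, 129, 193 and 174 CPM in the GFP+ libraries of models A to E and at 274, 332, 147, 309.7 and 165 CPM in the GFP- libraries. It was lower in GFP+ cells in pairs B and D, higher in A, and near its partner in C and E. The log2 difference was -0.34 (SE 0.21) at an adjusted p of 0.678 by edgeR, or -0.13 without pair B and -0.51 without pair A.

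The estimates of the laminin alpha genes lay on both sides of 0. Lama4 stood at 341, 412, 237, 441 and 136 CPM in the GFP+ libraries of models A to E and at 272, 651, 255, 599 and 167 CPM in the GFP- libraries, lower in GFP+ cells in every pair but A. Its log2 difference was -0.27 (SE 0.15) at an adjusted p of 0.636 by edgeR, -0.15 without pair B and -0.41 without pair A, where its unadjusted p was 0.0123. Lama2 stood at 90.4, 54.1, 24.5, 115 and 20.9 CPM in the GFP+ libraries of models A to E and at 54.6, 253, 32.3, 299 and 12.1 CPM in the GFP- libraries. The GFP- libraries of models B and D were far above the other 8, while in A and E the GFP+ library was the higher one. Its log2 difference was -0.55 (SE 0.47) at an adjusted p of 0.776 by edgeR, -0.10 without pair B, -0.28 without pair D, -0.90 without pair A and -0.90 without pair E. Lama5, a chain of epithelial and vascular basement membranes, stood at 7.34, 191, 8.80, 47.2 and 8.20 CPM in the GFP+ libraries of models A to E and at 8.07, 74.9, 6.55, 50.3 and 2.98 CPM in the GFP- libraries. Only pairs B, C and E were higher in GFP+ cells. Its log2 difference was 0.55 (SE 0.27) at an adjusted p of 0.591 by edgeR, or 0.34 without pair B and 0.35 without pair E. It was 0.71 without pair A and 0.76 without pair D, at unadjusted p of 0.0391 and 0.0316.

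The estimates of the common beta and gamma chains lay near 0. Lamb1 stood at 1245, 874, 1069.8, 1232 and 841 CPM in the GFP+ libraries of models A to E and at 1063, 1026, 973, 991 and 830.4 CPM in the GFP- libraries, and its log2 difference was 0.062 (SE 0.11). Lamc1 stood at 884, 867, 721, 948 and 746 CPM in the GFP+ libraries of models A to E and at 875, 884, 699, 907 and 837 CPM in the GFP- libraries, and its log2 difference was -0.046 (SE 0.089). The populations overlapped for both genes, and for Lamb1 the GFP+ libraries of A, C and D were above every GFP- library. Lamc3, a rarer gamma chain, stood at 2.33, 0.479, 11.0, 4.17 and 10.3 CPM in the GFP+ libraries of models A to E and at 1.80, 0.0453, 8.86, 1.75 and 9.33 CPM in the GFP- libraries. It was higher in GFP+ cells in every pair, with a log2 difference of 0.62 (SE 0.30) at an adjusted p of 0.591 by edgeR. Without pair B it was 0.47, and without pair D also 0.47. Its pair B value rests on 9 reads against 1.

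Of the linkers, Nid2 (ENSMUSG00000021806, chromosome 14, 19751265 to 19811787) came nearest to the threshold. It stood at 117, 83.1, 40.0, 167 and 53.4 CPM in the GFP+ libraries of models A to E and at 181, 128, 57.5, 174 and 47.9 CPM in the GFP- libraries. GFP+ was lower in pairs A to D and higher in E. The log2 difference was -0.37 (SE 0.14) at an unadjusted p of 0.0316 and an adjusted p of 0.503 by edgeR, with an unadjusted p of 0.0983 without pair A, 0.0954 without B and 0.0929 without C. Its relative Nid1 was at 974, 1035, 247, 1141 and 497 CPM in the GFP+ libraries of models A to E and at 1024, 1452, 229, 1063 and 497 CPM in the GFP- libraries, with a log2 difference of -0.10 (SE 0.12) that lay above 0 without pair B (0.013). Model C held the least of both nidogens in GFP+ cells. Hspg2, the perlecan gene, stood at 1674, 2957, 1710.0, 2919 and 1819.9 CPM in the GFP+ libraries of models A to E and at 1412, 2213, 1748, 1754 and 1563 CPM in the GFP- libraries. GFP+ was higher in every pair but C, most of all in D. The log2 difference was 0.29 (SE 0.13) at an adjusted p of 0.585 by edgeR, or 0.19 without pair D.

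Pair B carried the most large differences. There 10 of the 32 genes (31.2%) differed by more than 2-fold between the populations, against 11.2% of all tested genes. Itga1, Itga10, Itga9, Itgb4, Itgb5 and Lama2 were lower in its GFP+ library, and Itgb7, Lama1, Lama5 and Lamc3 higher. In pair D 5 genes (15.6%, against 8.03%) passed 2-fold: Itga6, Itga2 and Lamc3 higher, Itga10 and Lama2 lower. Pair A had 4 (12.5%, against 6.72%), with Itga7, Itga4 and Itgb4 higher and Itgb7 lower, pair E 4 (12.5%, against 6.13%) and pair C 2 (6.25%, against 4.02%), Itga11 and Itga9, both lower. In pair E all 4 (Itga6, Itga11, Itgb7 and Lama5) were higher in GFP+ cells. With 1 library on each side these counts carry no test.

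The summed level of pericyte and smooth muscle markers was lower in the GFP+ library than in its partner in every pair but A. In B and D, where it differed most, Lama2 and Itgb5 were also lower in GFP+ cells, and they were lower in C as well. In A the marker sum and both genes were higher in GFP+ cells, while in E both genes were higher and the marker sum lower. For the 8 markers the sum was 305 CPM (GFP+) against 900.5 CPM (GFP-) in model B, and 325 against 597 CPM in model D. Over the series it was 102 to 397 CPM in the GFP+ libraries and 126 to 900.5 CPM in the GFP- libraries. Most of it was Pdgfrb, the receptor of pericytes and many fibroblasts, at up to 780.4 CPM, whereas the contractile markers Myh11, Des and Cnn1 reached 12.2, 4.07 and 1.94 CPM at most. None of the 8 was at 0 in every library. The part of such cells in the laminin and integrin values was not tested.

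Most of the genes differed between the tumour models. A quasi-likelihood F-test of the 5 models in edgeR set the differences between models against the spread of the GFP differences. It called 22 of the 32 genes (68.8%) at an adjusted p under 0.05, against 54.7% of all tested genes. The 2 libraries of a model share their tumour source, so these p-values concern the tumours sampled and not further tumours of a model. The ratio of the highest to the lowest model mean had a median of 3.50 over the 32 genes and 1.93 over all tested genes. Itga1, Itga4, Itgb5, Itgb7, Itgb8, Lama1, Lama3, Lamb1, Lamc1 and Hspg2 were the 10 not called. Without model C 17 of the 32 were called, against 28.6% of all genes, and without model E 18, against 38.2%.

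Itgb4, the partner of Itga6 in the laminin receptor of hemidesmosomes and of myelinating Schwann cells, varied most. It stood at 18.3, 27.2, 201, 22.8 and 3.04 CPM in the GFP+ libraries of models A to E and at 6.73, 93.2, 358, 42.7 and 1.46 CPM in the GFP- libraries. Both libraries of model C were above all others and both of model E below all others (adjusted p = 0.00285 by edgeR). Between the populations it went either way, being higher in GFP+ cells of A and E and lower in those of the other 3 models, with a log2 difference of -0.44 (SE 0.47), -0.038 without pair B and -0.90 without pair A, the lowest and highest in size of the values with 1 pair left out. Its partner gene Itga6 had another order, with model means of 15.3, 147, 44.2, 72.7 and 29.1 CPM in A to E (adjusted p = 0.00935 by edgeR). The summed level of 8 epithelial markers was 25.2 to 235 CPM in the GFP+ libraries and 5.16 to 264 CPM in the GFP- libraries, mostly Krt8 and Krt18. Like Itgb4 it was highest in both libraries of model C. In model E, where Itgb4 was lowest, it was still 217 CPM (GFP+) and 129 CPM (GFP-). Cdh1, at 2.77 and 2.59 CPM, and Krt14, at 1.68 and 1.21 CPM, also peaked in model C. Krt18 was lower in model C (38.3 and 28.6 CPM in GFP+ and GFP- cells) than in model A (66.9 and 93.8 CPM). Epcam, Trp63 and Cldn4 peaked in model D. Krt5 reached 0.109 CPM at most and Cldn4 0.384 CPM. Their part was not tested.

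Itga11, a receptor for fibrillar collagen, was highest in model D. It stood at 3.28, 2.98, 0.109, 15.1 and 1.16 CPM in the GFP+ libraries of models A to E and at 2.93, 2.72, 0.440, 25.5 and 0.380 CPM in the GFP- libraries (adjusted p between models = 0.00152 by edgeR). Both model D libraries were above the other 8, and both of model C were under 0.5 CPM. Lamc3 was highest in models C and E and lowest in B (adjusted p = 0.00188). The levels of Lama5 were highest in both libraries of model B, followed by both of D (adjusted p = 0.00079, the lowest of the 34 genes by edgeR). Lama2 (adjusted p = 0.0238) and Itga9 (adjusted p = 0.00823) were highest in the GFP- libraries of D and B, respectively. The call of Lama2 was lost without model C or E.

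**Figure D4:**
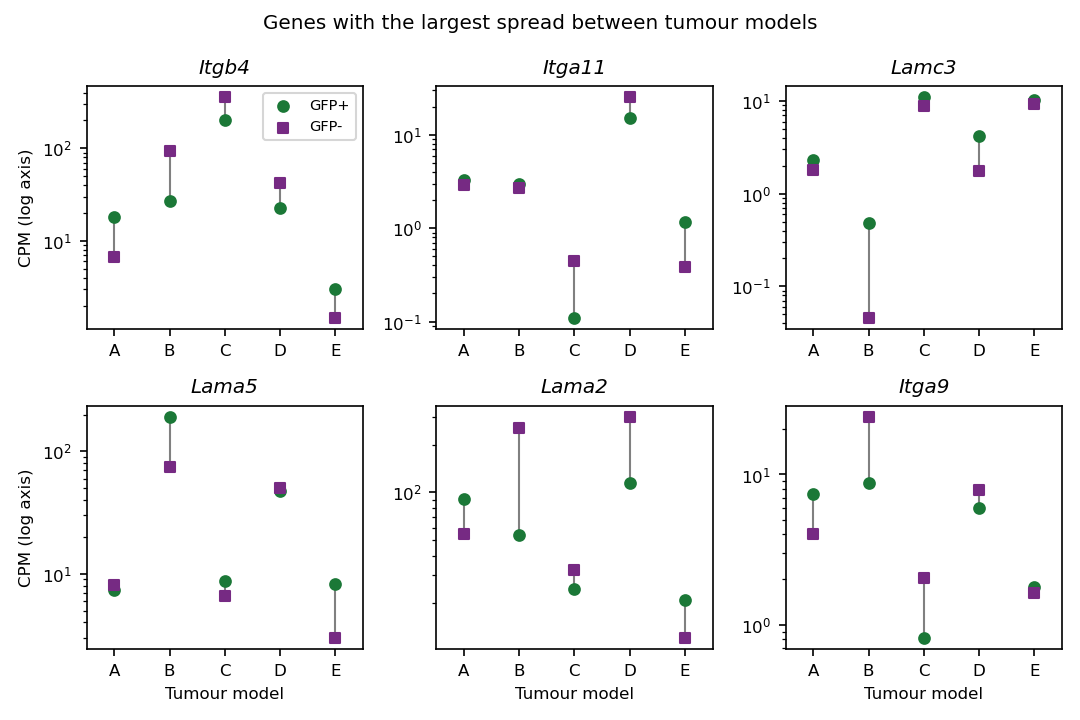
CPM (log axis) of the 6 genes with the largest ratio of highest to lowest model mean, in GFP+ (green circles) and GFP- (purple squares) libraries of models A to E, with a line joining a pair. Itgb4 runs from 1.46 to 358 CPM, and in Lama2 the GFP- libraries of B and D stand above their GFP+ partners.

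Nid1 also separated the models, since both libraries of model C were lowest and both of model E next (adjusted p = 0.000967 by edgeR). Nid2 (adjusted p = 0.00221), Itga10 (adjusted p = 0.00284), Itga2 (adjusted p = 0.00619), Lama4 (adjusted p = 0.00396) and Itga5 (adjusted p = 0.00441) were called between models too, and Itgb1 at an adjusted p of 0.0254. Dag1, which encodes dystroglycan, was highest in both libraries of model C, with model means of 279.6, 245, 476, 315 and 193 CPM in A to E (adjusted p = 0.00216 by edgeR). The calls of Dag1, Itga5 and Itgb1 were lost without model C, that of Itgb1 also without B, and that of Itga6 without B. For Dag1, between the populations its log2 difference was -0.035 (SE 0.084).

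The other genes are given by their range over the 10 libraries. Itga3 lay at 20.2 to 72.4 CPM, Itga6 at 11.1 to 178 CPM and Itga7, the laminin receptor subunit of muscle and Schwann cells, at 19.997 to 113 CPM. The calls of Itga3 and Itga7 between models were lost without model C or E. Itga7 was higher in GFP+ cells in every pair but B, with a log2 difference of 0.46 (SE 0.26), 0.73 without that pair and 0.21 without pair A. Itga6 was higher in pairs B, D and E, with a log2 difference of 0.41 (SE 0.32), 0.14 without pair D, 0.23 without pair E and 0.70 without pair A. Itga1, a collagen receptor subunit that shares exons with the predicted gene Gm49395 and is likewise uncertain, lay at 16.7 to 113 CPM. Itgav lay at 145 to 278 CPM.

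Itgb3, a partner of Itgav on osteoclasts, lay at 5.10 to 44.6 CPM and was called between models (adjusted p = 0.00385 by edgeR). Itgb8, which with Itgav activates latent TGF-beta, lay at 12.2 to 38.2 CPM. Itgb7, a leukocyte subunit, lay at 2.75 to 24.9 CPM, more than 2-fold higher in GFP+ cells in pairs B and E and more than 2-fold lower in A. Its log2 difference was 0.53 (SE 0.42), 0.98 without pair A, 0.30 without pair B and 0.26 without pair E. Itgb2, the common subunit of leukocyte integrins, lay at 0.217 to 1.69 CPM, beside at most 0.453 CPM of the leukocyte marker Ptprc. It was called between models (adjusted p = 0.0204 by edgeR) on 4 to 27 reads per library. That call was lost with DESeq2, with a filter of at least 1 CPM in 5 libraries, and without model A, D or E. The part of leukocytes in these values was not tested. Itgb6, an epithelial subunit, had 0, 5, 0, 1 and 3 reads in the GFP+ libraries of models A to E and 0, 5, 0, 0 and 0 in the GFP- libraries. It and Lamb3 were the 2 genes with too few reads for the test.

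Lama1, the chain of early embryonic basement membranes, lay at 0.815 to 6.35 CPM and Lama3, the epithelial chain, at 1.13 to 6.07 CPM. Lamb2, typical of synaptic and muscle basement membranes, lay at 95.6 to 279 CPM and was called between models (adjusted p = 0.00897 by edgeR). Agrn, which clusters acetylcholine receptors at the synapse and binds dystroglycan, lay at 162 to 917 CPM. Its peak was the GFP- library of model B (adjusted p between models = 0.00306 by edgeR).

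The wider adhesion machinery was read in the same fit, from 5 lists of other genes, in which 0 genes passed at an adjusted p under 0.05. The counts at an unadjusted p under 0.05 given for them stand beside 8.99% of all tested genes. Of 28 tested integrin adaptors and signalling genes, 17 were on the higher and 11 on the lower side in GFP+ cells (median log2 difference 0.086), with 5 at an unadjusted p under 0.05. The smallest p belonged to Lims2, a scaffold of the integrin-linked kinase complex (log2 1.14, SE 0.36), Tns3, a tensin that binds beta tails (-0.23, SE 0.084), and Parvb, a parvin of the same kinase complex (0.45, SE 0.17). Among 19 other integrin ligands, 9 lay higher and 10 lower (median -0.067). Tnc, the tenascin that Itga9 binds (log2 0.36, SE 0.11), was the 1 gene at an unadjusted p under 0.05, ahead of Npnt, the ligand nephronectin (0.86, SE 0.40), and Thbs1, a thrombospondin (0.30, SE 0.15).

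Of 19 other basement membrane genes, 9 lay higher and 10 lower (median -0.021). Pxdn, which crosslinks collagen IV, had the smallest p (log2 0.30, SE 0.10), before Col18a1 (0.44, SE 0.19) and Fras1 (-0.32, SE 0.15). Between the models 18 of the 19 were called, against 54.7% of all tested genes. In the other lists these calls were 14 of 16 receptors and integrin partners, 14 of 19 ligands, 18 of 28 adaptors and 15 of 26 dystroglycan genes. The dystroglycan complex and its glycosylation enzymes had 11 higher and 15 lower of 26 (median -0.026), with 4 at an unadjusted p under 0.05. Dtna, encoding dystrobrevin (log2 0.50, SE 0.13), Sntb1, a syntrophin (1.10, SE 0.31), and Dmd, encoding dystrophin (0.61, SE 0.20), had the smallest p, all on the higher side. Of 16 other receptors and integrin partners, 10 lay higher and 6 lower (median 0.044), with 5 at an unadjusted p under 0.05. Plaur, the urokinase receptor (log2 0.37, SE 0.086), Sdc3, a syndecan of neural tissue (1.02, SE 0.27), and the tetraspanin gene Cd82 (0.27, SE 0.078) led this list, and each was higher in GFP+ cells in 5 of 5 pairs.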

How the data were processed

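RNA of GFP+ and GFP- cells sorted from 5 tumour models was sequenced, 1 library each. What the authors deposited are raw counts of reads in genes, in the layout of STAR gene counts, and per the submitters' processing notes STAR 2.4.2.8 and mouse build mm10 were used. Annotation and library kit are not given in the labels used here, and the strand column with 96.9% to 97.1% of stranded gene reads was used. Summary lines that name no gene (21.3% to 24.3% of reads) were left out. Symbols, lengths and mm10 coordinates came from GENCODE vM21 (46005 of 46517 identifiers matched), and no 2 libraries were identical.

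Counts were scaled by TMM, filtered with filterByExpr and fitted in edgeR 4.0.16 under R 4.3.3. GFP+ was compared with GFP- by the quasi-likelihood test, two-sided, with the tumour model as block and p-values adjusted over 13986 genes. The same fit gave the F-test between models. SEs were derived from the F statistic. Pair differences used log2 CPM with a prior count of 2. The series' design text states a paired comparison. Libraries of a model come from the same tumour model, and after removing the population mean they correlated at 0.628 to 0.867. Whether models are separate animals is not stated, so p-values measure the spread between these samples. Alternatives used DESeq2 1.42.0, limma 3.58.1 (voom), other scalings, filters and the unstranded count, no block, and each pair left out. The pipeline was checked on simulated counts. The genes and lists were chosen with earlier results of these data known. Values in every library were given for up to 6 genes with the smallest p in each direction, the 6 with the largest ratio between model means and the 6 most abundant per kilobase. Of each other list up to 3 genes with the smallest p were named, and any further gene was chosen after its values were seen.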

Additional observations from a re-analysis of the deposited data

Results flagged for a closer look

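In 7 of 64 groups of 5 libraries (a gene in 1 population), 1 library lay apart by Dixon's ratio. This is the gap to the nearest neighbour divided by the range, with a 95% critical value of 0.71. About 1 in 20 groups pass it by chance if the 5 values are replicates from 1 normal distribution. The values here are CPM of 5 different tumour models, so that rate need not hold and the 7 are a description only. Itgb4 stood out at 201 CPM in the GFP+ library of model C, where the other 4 lay at 3.04 to 27.2 CPM. In GFP- cells it was at 358 CPM in the GFP- library of model C, where the other 4 lay at 1.46 to 93.2 CPM. Itga11 stood out in model D, at 15.1 CPM in the GFP+ library of model D, where the other 4 lay at 0.109 to 3.28 CPM, and at 25.5 CPM in the GFP- library of model D, where the other 4 lay at 0.380 to 2.93 CPM. For these genes the same model stood apart in both populations. Lama5 was at 191 CPM in the GFP+ library of model B, where the other 4 lay at 7.34 to 47.2 CPM. Itga9 was at 24.2 CPM in the GFP- library of model B, where the other 4 lay at 1.63 to 7.82 CPM. Agrn was at 917 CPM in the GFP- library of model B, where the other 4 lay at 182 to 356 CPM. These last 3 values all came from model B, that of Lama5 from its GFP+ library and those of Itga9 and Agrn from its GFP- library.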

How the results depend on the processing

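No gene of the 34 was called between GFP+ and GFP- cells under any alternative run. The count at an unadjusted p under 0.05, 5 with the replicate block, was 0 without it, 8 with no filter on low counts, 8 with DESeq2 and 8 with edgeR's likelihood-ratio test, and 4 to 10 when a pair was left out. The 8 were the same genes each time, the 5 named plus Lama5, Lamc3 and Hspg2. Over all genes 0 were called by edgeR's quasi-likelihood test, 195 by DESeq2, 206 by the likelihood-ratio test and 47 with no filter. The 22 calls between models became 17 to 29, and the 16 genes above 0 became 15 to 19. Of 445 single-gene values under alternatives, 16 changed sign, in 10 genes. With pairs left out in turn, the log2 differences were Itga3 -0.12 to 0.33, Itga1 -0.48 to 0.19, Itga11 -0.40 to 0.18, Itgb1 -0.0077 to 0.047, Itgb2 -0.19 to 0.087, Itgb8 -0.070 to 0.22, Lama1 -0.071 to 0.49, Lama3 -0.36 to 0.077, Nid1 -0.15 to 0.013 and Agrn -0.15 to 0.15. Agrn was also 0.011 with library totals and 0.012 with limma voom. The cause was not tested. Itgb2 dropped below the filter without pair A or D. Counts of a few reads limit Itga2, Itgb2, Itgb6, Lamb3 and Lamc3.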

Other observations

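The balance of integrin beta to alpha transcripts was not described above. Summed per kilobase over the 8 beta and 11 alpha genes, the beta to alpha ratio was 2.48, 1.70, 3.43, 2.51 and 2.60 in the GFP+ libraries of models A to E and 2.41, 2.24, 4.12, 3.41 and 2.88 in the GFP- libraries. It was higher in GFP- cells in 4 of 5 pairs, A being the exception, and both libraries of model C were above the GFP+ libraries of the other models. The ratio was looked at after the data were seen and was not tested.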
